A study of Mus musculus with 54 samples.

Results

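The 10 genes described here were Socs1, Socs2, Socs3 and Cish of the SOCS family, the kinase genes Pim1 and Pim2, and the transcription factor genes Stat3, Stat4, Stat5a and Stat5b. They were taken by name from 2 RNA-sequencing count tables of mouse naive CD4+ T cells, which hold 55385 gene IDs each. All 10 genes had reads in both tables, among the 32290 genes with at least 1 read in the CD5/CD6 experiment and the 27780 genes in the LAT experiment. No measured value was used to choose them by the rule itself, but the rule was written with earlier results of these data known.

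Cytokine receptors lack a kinase of their own and rely on Janus kinases, which phosphorylate STAT proteins. The STAT proteins then dimerize, enter the nucleus and bind short palindromic sites in their target genes. SOCS proteins, among them CIS (encoded by Cish), are made in response to that signal and act against the receptor or the Janus kinase, so their transcripts are a common readout of recent cytokine signaling. PIM1 and PIM2 are serine/threonine kinases that support growth and survival and are themselves induced by cytokines and by the TCR. In CD4+ T cells, STAT5A and STAT5B act downstream of IL-2 and IL-7, STAT3 downstream of IL-6, IL-10 and IL-21, and STAT4 downstream of IL-12.

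The LAT experiment compared WT and Lat-/- cells, both from Lat fl-dtr maT-Cre mice and separated on a cell sorter. The WT cells still carried the human diphtheria toxin receptor (DTR) and the Lat-/- cells had lost it, so both genotypes came from mice that carry the floxed allele and Cre. LAT is the membrane adaptor that relays TCR signals. The CD5/CD6 experiment compared WT, Cd5-/-, Cd6-/- and Cd5-/-Cd6-/- cells enriched with magnetic beads, where CD5 and CD6 are surface receptors of T cells. The double knockout carries a CRISPR deletion of the Cd5 to Cd6 region, and Cd6-/- carries a small deletion at exon 1 that leaves its transcript. Mice were C57BL/6, 8 to 10 wk old, and cells were pooled from lymph nodes and spleens. Cells were taken unstimulated (0 h) or after 4 h or 20 h on plate-bound anti-CD3 (3 µg/ml) with soluble anti-CD28 (1 µg/ml). No library came from cells kept for 4 h or 20 h without these antibodies, so stimulation and time in culture cannot be told apart. Each of the 12 and 6 conditions had 3 libraries. The sources used here do not say whether the 3 came from separate mice, so p-values measure the spread between these libraries.

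Libraries held 20.6 to 45.2 M reads in the CD5/CD6 experiment and 17.8 to 28.5 M in the LAT experiment (M, 1000000 reads). Lat had 92.2 to 351 CPM (counts per 1000000 reads, scaled by TMM) in WT libraries and 5.69 to 19.1 CPM in Lat-/- libraries. Cd5 and Cd6 were at or under 0.663 CPM in every double knockout library. The 0 h libraries 2 of the single knockouts went against their labels: the library labelled Cd5-/- had 719 CPM of Cd5 and 329 CPM of Cd6, and the library labelled Cd6-/- had 172 CPM of Cd5 and 1203 CPM of Cd6. Among the other 0 h libraries, those of Cd6-/- had 724 and 719 CPM of Cd5 and at most 349 CPM of Cd6. Those of Cd5-/- had 129 and 105 CPM of Cd5 and 1298 and 1084 CPM of Cd6. In Cd5 and in Cd6, both libraries thus lay nearer to the other single knockout than to their own label. Whether they were exchanged was not tested, and they were kept under their labels unless stated. The members' calls and responses in the single knockouts were also computed without both libraries. Defining markers of naive CD4+ T cells summed to 3898 to 10300 CPM in every library. B cell markers reached 493 CPM and myeloid markers 338 CPM at 0 h in the bead-enriched CD5/CD6 experiment, but at most 4.73 and 18.1 CPM in the sorted LAT experiment. In bulk RNA, fewer cells of a type and less RNA per cell cannot be told apart.

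A gene was counted as changed when its fold change was above 2 with an adjusted p under 0.05 in edgeR's quasi-likelihood test over all genes. In the LAT experiment this test used a spread fitted over the genes and took none from single genes. The residual deviance per degree of freedom is near 1 for a gene that varies as fitted. It was over 1 in 6 of the 10 members in the LAT experiment, up to 4.2 (Pim2), and in 7 in the CD5/CD6 experiment, up to 5.68 (Socs3). A second fit on genes with enough reads used each gene's own spread more. Its adjusted p is given as the read-filtered value. Of 380 fold changes of the 10 genes, 107 were called in the fit of all genes, 105 in the read-filtered fit and 105 in both. Fold changes are given as folds and on the log2 scale, and each SE is of the log2 value in the fit of all genes unless named otherwise.

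STAT dimers are known to bind the palindrome TTCNNNGAA, so the RefSeq promoters (GRCm38.p6, 300 bases around the start) of the members were searched for it. The motif is its own reverse complement, so both strands were covered. Promoters of 9 of the 10 members were in the table used, and that of Socs2 was not. Cish held 2 copies, Socs3 held 1, and the other promoters searched held none. The 2 windows with the motif are shown for that reason. The window of Cish is chr9:107296654-107296683 on the plus strand, around its RefSeq start and inside exon 1 of its longest coding transcript in GENCODE. The window of Socs3 is chr11:117969501-117969530 on the minus strand, upstream of the RefSeq start and of the coding transcript, and inside an intron of a longer noncoding transcript. Capitals mark the motif.
Cish: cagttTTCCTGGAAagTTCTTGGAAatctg
Socs3: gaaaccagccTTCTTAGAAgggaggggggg
The first copy in Cish begins at the RefSeq start and the other 11 bases further on, and the copy in Socs3 begins at -154 from its RefSeq start. At least 1 copy was found in 8.3% of 32851 promoters of this length and at least 2 copies in 0.457%. A wider form with 1 more free base in the middle was found in no member's promoter and in 6.95% of all promoters. A match describes the letters of this window only.

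In WT cells, the SOCS genes split by time and direction of change. Socs1 was high at 4 h only, Cish rose at 4 h and stayed high at 20 h, Socs2 rose only by 20 h, and Socs3 fell at 4 h and stayed low. Among WT libraries of the LAT experiment, 3 members rose and 2 fell at 4 h against 0 h, beside 8.05% and 9.29% of all genes tested, and 4 rose and 1 fell at 20 h, beside 10.8% and 12.7%. Among those of the CD5/CD6 experiment, 3 rose and 1 fell at 4 h (8.24% and 11.1% of all genes), and 4 rose and 1 fell at 20 h (12.3% and 17.3%). Between 4 h and 20 h, 6 members changed in the LAT experiment (17.2% of all genes) and 4 in the CD5/CD6 experiment (21%). All of these shares include genes with few reads. The median log2 fold change of the 10 members lay between -0.23 and -0.09 in these 6 comparisons, and that of all genes was 0.

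**Figure D1:**
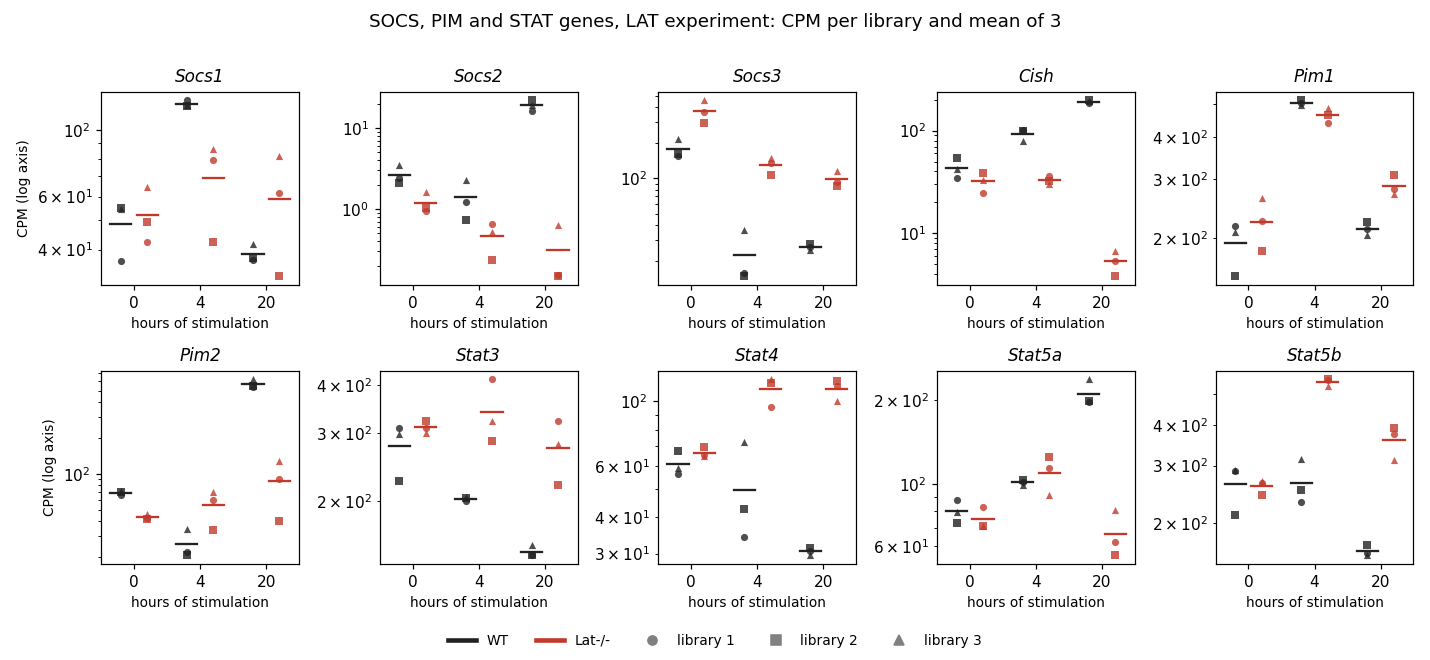
Level of the 10 genes in the LAT experiment, in CPM on a log axis, at 0, 4 and 20 h of stimulation in WT (black) and Lat-/- (red) cells. Each symbol is 1 library and each line the mean of 3. Cish and Socs2 rose in WT cells by 20 h and ended at 5.31 and 0.31 CPM on average in Lat-/- cells, and Socs3 was higher in Lat-/- cells at all 3 times.

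Cish encodes CIS, a feedback inhibitor of STAT5-activating receptors. Its level in WT libraries of the LAT experiment was 34.7, 53.7 and 42.6 CPM at 0 h, 101, 99.7 and 79.8 CPM at 4 h, and 186, 197 and 194 CPM at 20 h. The groups at the 3 times did not overlap. Cish rose 2.14-fold by 4 h and 4.41-fold by 20 h (log2 2.14 ± 0.16 SE, adjusted p = 2.7e-39, read-filtered 2.2e-08). The rise at 4 h fell under 2-fold without libraries 1 (log2 0.85) and with library totals in place of TMM factors (0.86). In the CD5/CD6 experiment, Cish of WT cells went from 23.3, 17.1 and 31.7 CPM to 73.8, 122 and 85.5 CPM at 4 h and 148, 114 and 121 CPM at 20 h, which was 3.89-fold and 5.3-fold.

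Lat-/- cells showed the reverse for Cish. The values were 24.6, 38.9 and 32.7 CPM at 0 h, 36.4, 32.5 and 30.1 CPM at 4 h, and 5.41, 3.79 and 6.73 CPM at 20 h. The level at 4 h overlapped that at 0 h (log2 0.04), and all 3 libraries at 20 h lay under every earlier Lat-/- library. Cish fell 6.06-fold from 0 h to 20 h in these cells (log2 -2.6 ± 0.17 SE, adjusted p = 6.5e-48, read-filtered 2.2e-07). Against WT cells it was lower at 4 h by 2.83-fold (log2 -1.5 ± 0.16 SE, adjusted p = 9.6e-20, read-filtered 4.3e-06) and at 20 h by 36.4-fold (log2 -5.18 ± 0.19 SE, adjusted p = 3.9e-164, read-filtered 7.2e-12). At 0 h the 2 genotypes overlapped (log2 -0.45, adjusted p = 0.18).

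Socs2, which restrains growth hormone and other cytokine receptors, was the lowest of the 10 genes per kilobase of annotated exon in every condition of both experiments. WT libraries of the LAT experiment had 2.43, 2.11 and 3.47 CPM at 0 h, 1.22, 0.733 and 2.3 CPM at 4 h, and 16.4, 21.9 and 19.4 CPM at 20 h. Only the 20 h libraries stood above the rest, at 7.17-fold the 0 h level (log2 2.84 ± 0.29 SE, adjusted p = 2.4e-21, read-filtered 2.7e-06). In the CD5/CD6 experiment the WT values were 1.26, 1.26 and 1.53 CPM, then 1.07, 0.647 and 1.06 CPM, then 17.5, 10.3 and 10.4 CPM, a 9.4-fold rise at 20 h.

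In Lat-/- cells, Socs2 went from 0.938, 1.03 and 1.63 CPM at 0 h to 0.662, 0.235 and 0.52 CPM at 4 h and 0.152, 0.148 and 0.631 CPM at 20 h. These last values rest on 3, 4 and 15 reads. No Lat-/- library reached a WT library of the same time. Socs2 was 60.6-fold lower than in WT cells at 20 h (log2 -5.92 ± 0.37 SE, adjusted p = 1.1e-55, read-filtered 4.5e-09). Lat-/- library 3 was the highest of its group, and without libraries 3 the log2 value was -6.94. The difference at 4 h (log2 -1.55, adjusted p = 0.00028, read-filtered 0.013) was no longer called without libraries 3 (log2 -1.02, adjusted p = 0.095). At 0 h the difference (log2 -1.15, adjusted p = 0.02) was not called in the read-filtered fit (adjusted p = 0.3), in DESeq2 (0.13), in the 2 groups fitted alone (0.13), or without libraries 1, 2 or 3 (0.39, 0.066 and 0.065). Within Lat-/- cells, Socs2 at 4 h against 0 h had a log2 value of -1.3, which was likewise not called in the read-filtered fit (adjusted p = 0.057).

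Socs3, the feedback inhibitor of IL-6-type receptors and STAT3, was high in resting cells. WT libraries of the LAT experiment had 155, 159 and 215 CPM at 0 h, 15.8, 14.7 and 36.4 CPM at 4 h, and 25.9, 27.8 and 24.5 CPM at 20 h. The stimulated libraries all lay under the resting ones. The fall was 7.88-fold at 4 h (log2 -2.98 ± 0.16 SE, adjusted p = 6.7e-73, read-filtered 3.5e-08) and 6.77-fold at 20 h. The CD5/CD6 experiment gave 111, 134 and 99.2 CPM at 0 h, 9.6, 32.7 and 26.4 CPM at 4 h and 14.4, 12.1 and 15.8 CPM at 20 h in WT cells, which was a fall of 5.01-fold and 8.14-fold.

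Lat-/- cells began with more Socs3 and kept more of it. Their values were 366, 296 and 456 CPM at 0 h, 135, 106 and 147 CPM at 4 h, and 92.2, 86.6 and 114 CPM at 20 h, each group above the WT libraries of its time. The fall from 0 h was 2.88-fold at 4 h and 3.82-fold at 20 h. Against WT cells, Socs3 was 2.11-fold higher at 0 h (log2 1.08 ± 0.15 SE, adjusted p = 3.4e-10, read-filtered 0.045), 5.78-fold higher at 4 h (log2 2.53 ± 0.16 SE, adjusted p = 5.2e-54, read-filtered 5.1e-07) and 3.74-fold higher at 20 h (log2 1.9 ± 0.16 SE, adjusted p = 9.1e-33, read-filtered 3.3e-06). Without libraries 1 the 0 h value was 1 and no longer called. At 0 h the regulatory T cell markers Foxp3 and Ikzf2 also differed between these cells, summing to 60.6 to 91.1 CPM in WT and 19.5 to 34.8 CPM in Lat-/- libraries, and the gamma delta T cell marker Trdc had 21.6 to 29.4 CPM against 11.2 to 12.4 CPM. All 3 NK cell markers were called lower in Lat-/- cells as well, with sums of 0.735 to 5.95 CPM in WT and 0.186 to 1.59 CPM in Lat-/- libraries. Their part in the result was not tested.

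Socs1, which binds Janus kinases directly and restrains interferon gamma and IL-2 family signals, was high only at 4 h in WT cells. In the LAT experiment it had 36.7, 55 and 54.6 CPM at 0 h, 125, 120 and 121 CPM at 4 h, and 36.8, 37.5 and 41.8 CPM at 20 h. The 4 h libraries lay apart from both other times, with a 2.49-fold rise from 0 h (log2 1.32 ± 0.16 SE, adjusted p = 6.1e-16, read-filtered 0.00037) and a 3.14-fold fall to 20 h. In the CD5/CD6 experiment the rise in WT cells was 3.14-fold and the fall 3.24-fold. In Lat-/- cells Socs1 had 42.5, 49.4 and 64.6 CPM, then 79.2, 42.5 and 86.3 CPM, then 61.7, 32.6 and 82 CPM, and neither time was called against 0 h (log2 0.41 at 4 h and 0.17 at 20 h). At 4 h all 3 Lat-/- libraries lay under the WT libraries, but the difference stayed under 2-fold (log2 -0.81 ± 0.15 SE, adjusted p = 1.8e-06, read-filtered 0.019). Library 2 was the lowest Lat-/- library for Socs1 at both stimulated times.

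PIM1 and PIM2 are related kinases, but their transcripts moved at different times. Pim1 in WT cells of the LAT experiment had 218, 154 and 208 CPM at 0 h, 505, 513 and 496 CPM at 4 h, and 213, 223 and 204 CPM at 20 h. It rose 2.61-fold by 4 h (log2 1.38 ± 0.15 SE, adjusted p = 6.4e-19, read-filtered 5.8e-08) and overlapped the 0 h libraries at 20 h. Lat-/- cells gave 225, 183 and 264 CPM, then 439, 466 and 488 CPM, then 280, 308 and 271 CPM. The rise at 4 h was 2.07-fold there (log2 1.05, adjusted p = 8.4e-11, read-filtered 8.9e-06) and under 2-fold without libraries 2 (log2 0.9) and with library totals (0.96). Pim1 was called in no Lat-/- against WT comparison (log2 0.21, -0.12 and 0.42), although the Lat-/- libraries did not overlap those of WT at 4 h (lower) and 20 h (higher), and the value at 4 h was 0.01 with library totals.

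Pim2 fell first and rose later. WT cells of the LAT experiment had 66.5, 70.8 and 71.4 CPM at 0 h, 22.1, 20.8 and 34.7 CPM at 4 h, and 533, 543 and 621 CPM at 20 h. All 3 groups were separate, with a 2.69-fold fall by 4 h and an 8.13-fold rise by 20 h (log2 3.02 ± 0.16 SE, adjusted p = 1e-76, read-filtered 1.4e-07). In the CD5/CD6 experiment the WT libraries had 55.4, 43.8 and 65.2 CPM, then 25, 49.3 and 62.2 CPM, then 551, 498 and 671 CPM. The 4 h value was not called there (log2 -0.27), and the rise by 20 h was 10.5-fold.

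Lat-/- cells showed neither change of Pim2 to that extent. Their libraries had 42.3, 41.8 and 46.4 CPM at 0 h, 60.2, 33.8 and 69.9 CPM at 4 h, and 90, 40.1 and 129 CPM at 20 h. Library 2 was the lowest at both stimulated times, and the value at 20 h against 0 h (log2 0.99) rose to 1.31 without libraries 2. Against WT cells Pim2 was 6.54-fold lower at 20 h (log2 -2.71 ± 0.16 SE, adjusted p = 1.6e-63, read-filtered 4.1e-07), with no overlap. At 4 h it was 2.11-fold higher (log2 1.08 ± 0.15 SE, adjusted p = 4.8e-11, read-filtered 0.0069), but Lat-/- library 2 at 33.8 CPM lay under WT library 3 at 34.7 CPM, and without libraries 1 the value was 0.94 and not called.

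The STAT genes separated the closely related Stat5a and Stat5b, which lie next to each other on chromosome 11. Stat5a in WT cells of the LAT experiment had 88.2, 72.7 and 79.6 CPM at 0 h, 102, 104 and 99.5 CPM at 4 h, and 197, 199 and 238 CPM at 20 h. It rose 2.64-fold by 20 h (log2 1.4 ± 0.15 SE, adjusted p = 8.2e-19, read-filtered 1.1e-07) and 2.25-fold in the CD5/CD6 experiment. In Lat-/- cells the values were 82.8, 70.8 and 70.8 CPM, then 114, 125 and 91.5 CPM, then 62.1, 55.7 and 80.6 CPM, and the 20 h libraries were 3.2-fold under those of WT (log2 -1.68 ± 0.15 SE, adjusted p = 3e-26, read-filtered 1.1e-08).

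Stat5b had 289, 211 and 290 CPM at 0 h in WT libraries of the LAT experiment, 231, 252 and 315 CPM at 4 h, and 162, 171 and 159 CPM at 20 h. The 20 h libraries were under all others, by less than 2-fold (log2 -0.68, adjusted p = 2.2e-05). Lat-/- cells had 265, 243 and 269 CPM, then 552, 553 and 528 CPM, then 376, 391 and 312 CPM. Stat5b rose 2.1-fold at 4 h in Lat-/- cells (log2 1.07 ± 0.15 SE, adjusted p = 3.3e-11, read-filtered 8.1e-06), but was at 0.99 without libraries 2 and with library totals. It was higher than in WT cells by 2.05-fold at 4 h (log2 1.03, adjusted p = 7.1e-11, read-filtered 5.1e-06, and 0.96 without libraries 1) and by 2.19-fold at 20 h (log2 1.13, adjusted p = 3.4e-13, read-filtered 5.4e-07). Of the 50-base windows of Stat5b transcripts, 11% also occurred in Stat5a, and 8.52% of those of Stat5a in Stat5b or Stat3, so reads of this length could be shared in part. The same holds for Cish, with 9.35% of its windows found among 514 other genes, and for Socs2, with 4.58% found among 127.

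Stat4, the transducer of IL-12, had 56.4, 67.4 and 58.9 CPM at 0 h in WT libraries of the LAT experiment, 34.3, 42.6 and 72.3 CPM at 4 h and 30.6, 31.4 and 29.6 CPM at 20 h. The 20 h value was at the threshold (1.99-fold lower, log2 -1, adjusted p = 1.4e-09) and was called without libraries 1, with library totals and with the 2 groups fitted alone (log2 -1.03, -1.03 and -1.01). Lat-/- libraries had 65.6, 69.4 and 64.9 CPM, then 95.8, 116 and 119 CPM, then 113, 117 and 100 CPM, above every WT library of the same time from 4 h on. Stat4 was 2.22-fold higher than in WT cells at 4 h (log2 1.15 ± 0.16 SE, adjusted p = 3e-12, read-filtered 5.1e-05) and 3.61-fold higher at 20 h (log2 1.85 ± 0.16 SE, adjusted p = 5.3e-30, read-filtered 7.7e-08). Of its 50-base windows, 21.7% also belong to Gm28177, which overlaps it on the same strand.

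Stat3 stayed under 2-fold in every comparison of the LAT experiment when all libraries were used. In WT cells it had 309, 226 and 298 CPM at 0 h, 200, 204 and 205 CPM at 4 h and 145, 145 and 154 CPM at 20 h, and in Lat-/- cells 309, 323 and 301 CPM, then 414, 286 and 322 CPM, then 322, 221 and 281 CPM. From 4 h on every Lat-/- library lay above every WT library of its time, with log2 values of 0.75 (adjusted p = 4.6e-06, read-filtered 0.00045) and 0.89 (adjusted p = 1.6e-08, read-filtered 3.9e-05). Without libraries 2 the value at 20 h was 1.06 and was called, as were the fall in WT cells from 0 h to 20 h (-1.07) and the difference of responses at 20 h (1.05).

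**Figure D2:**
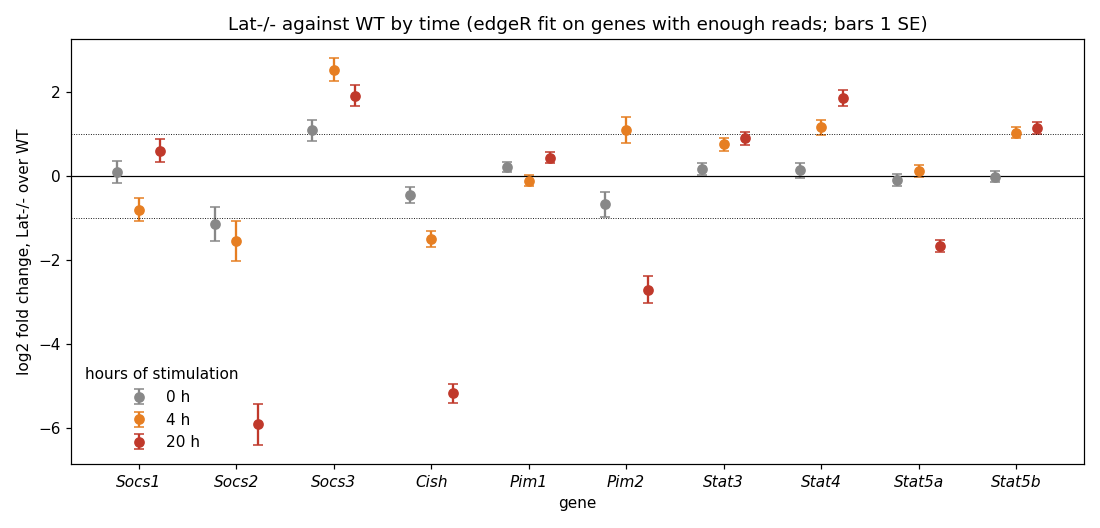
Log2 fold change of Lat-/- over WT cells for each of the 10 genes at 0, 4 and 20 h, from the edgeR fit on genes with enough reads. Bars are 1 SE of that fit and dotted lines mark a 2-fold difference. Socs2, Cish, Pim2 and Stat5a lay between -5.92 and -1.67 at 20 h, and Socs3, Stat4 and Stat5b between 1.13 and 1.91.

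Counted over the 10 members, Lat-/- differed from WT cells in 2 at 0 h (0.961% of all genes), in 6 at 4 h and in 7 at 20 h. At 4 h, 4 were higher and 2 lower, beside 5.51% and 6.23% of all genes, and at 20 h, 3 were higher and 4 lower, beside 12.1% and 12.3%. In the read-filtered fit without libraries 1, 3 members were called at 4 h, and 1 member was called at 0 h with all libraries. Within Lat-/- cells, 4 members changed at 4 h against 0 h (6.7% of all genes), 3 at 20 h against 0 h, all lower (4.21%), and 1 from 4 h to 20 h (4.1%). The responses themselves differed between the genotypes in 5 members at 4 h (8.71% of all genes) and in 6 at 20 h (19.5%), tested as the interaction of genotype and time. At 20 h this difference was -4.77 for Socs2, -4.74 for Cish, -2.03 for Pim2 and -1.58 for Stat5a, and 1.72 for Stat4 and 1.15 for Stat5b, on the log2 scale. At 4 h without libraries 1 or without libraries 2, 3 members were called, and in the read-filtered fit without libraries 1, 0 were.

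Markers of other cells also differed between these genotypes. At 20 h the regulatory T cell markers summed to 34.5 to 36.9 CPM in WT and 4.53 to 10.6 CPM in Lat-/- libraries, and the 6 myeloid markers to 0.332 to 0.795 CPM and 12.4 to 18.1 CPM. Of the myeloid markers, Lyz2, Csf1r, Cd14 and Clec4f were under 1 CPM in every library of the LAT experiment, as were the B cell markers Ms4a1, Pax5 and Ebf1. CD8 T cell markers summed to 12.4 to 35.7 CPM and NK cell markers to at most 5.95 CPM over all libraries of that experiment, and to 13.9 to 85.1 CPM and at most 41.9 CPM in the CD5/CD6 experiment. Their part in the differences of the 10 genes was not tested.

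Per kilobase of annotated exon, the order in WT cells of the LAT experiment changed at each time. The length used holds every annotated exon of a gene, such as 6419 bases for Cish, and not the transcripts in use. Levels of different genes are thus compared only roughly. At 0 h Socs3 (61 ± 11.7 CPM per kb, SD), Pim1 (57.5 ± 10.2) and Stat5b (47.5 ± 8.13) led, and each overlapped the next of them. At 4 h Pim1 (150 ± 2.59) stood alone above Stat5b (48 ± 7.84) and Socs1 (41.8 ± 0.911), which overlapped. At 20 h Pim2 (202 ± 17.3) and Pim1 (63.5 ± 2.79) stood apart from all lower genes, and Cish (30 ± 0.904), Stat5b (29.7 ± 1.14) and Stat5a (29.6 ± 3.24) overlapped. In Lat-/- cells the leading gene was Socs3 at 0 h (129 ± 27.8 CPM per kb) and Pim1 at 4 h (138 ± 7.39) and 20 h (85.1 ± 5.8), Stat5b came directly after Pim1 at each time, and Cish (0.827 ± 0.23) stood above only Socs2 (0.0326 ± 0.0291) at 20 h. WT cells in the CD5/CD6 experiment had Pim1 as the leading gene at 0 h (63.8 ± 24.6), where it overlapped Stat5b (46.3 ± 1.72), and at 4 h (151 ± 14.4), and Pim2 at 20 h (205 ± 31.7).

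In the CD5/CD6 experiment the responses of the 3 knockouts were counted in the same way. At 4 h against 0 h, 5 members changed in Cd5-/- cells (19.5% of all genes), 5 in Cd6-/- cells (18%) and 4 in double knockout cells (17.2%). At 20 h against 0 h the counts were 5 (30%), 5 (28.2%) and 4 (30.3%), and from 4 h to 20 h they were 4 (21.3%), 6 (20.8%) and 6 (21.4%). Cish and Socs1 rose at 4 h in every knockout, by log2 values of 2.47 to 2.59 and 1.61 to 2.2. Pim1 rose at 4 h by 1.31 to 1.47 and Socs3 fell by 3.01 in Cd5-/- and by 1.45 in both other knockouts, although the Pim1 value in double knockout cells was 0.98 without libraries 3 and 2.02 without libraries 1, and without libraries 1 the Socs3 value there was -0.9. Pim2 rose at 20 h by 3 to 3.11. Stat5a rose at 20 h in Cd6-/- cells (1.28), and its values in Cd5-/- and double knockout cells were 0.88 and 0.94. Markers of B cells and myeloid cells fell by 20 h in this experiment. They had sums of 54.9 to 493 and 44.6 to 338 CPM at 0 h and of at most 3.8 and 0.733 CPM at 20 h. Their part in the responses was not tested. Without both 0 h libraries that went against their labels, the counts of members called in the Cd5-/- and Cd6-/- responses were the same, and Cish at 4 h had log2 values of 2.71 in Cd5-/- and 2.38 in Cd6-/- cells, Socs1 1.5 and 1.72, and Socs3 -2.75 and -1.68.

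**Figure D3:**
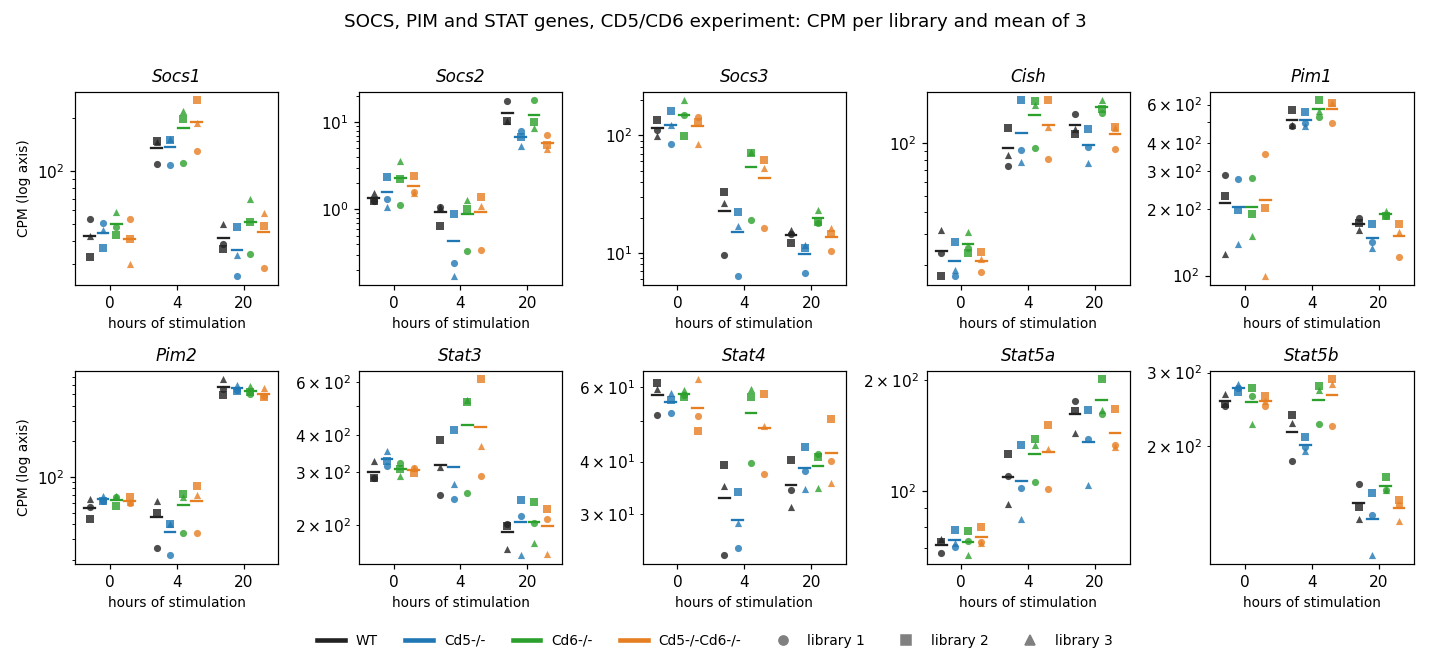
Level of the 10 genes in the CD5/CD6 experiment, in CPM on a log axis, at 0, 4 and 20 h in WT (black), Cd5-/- (blue), Cd6-/- (green) and double knockout (orange) cells. Each symbol is 1 library and each line the mean of 3. No member was called between a knockout and WT cells at any time, and Socs3 at 4 h ranged from 6.33 to 72.3 CPM over the 4 genotypes.

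Knockout against WT cells gave no called member in the CD5/CD6 experiment. Over 15 comparisons and 150 values, edgeR called 0 and DESeq2 called 0, with a lowest adjusted p of 0.38. At an unadjusted p under 0.05 there were 21 values by edgeR and 13 by DESeq2, beside 2.31% and 1.59% of the values of all genes, which include genes with few reads. At 0 h, the share of all genes that were called was 0.0619% for Cd5-/-, 0% for Cd6-/- and 0.0248% for double knockout cells. Without both 0 h libraries the first of these was 0.652% and the Cd6-/- share 0.0624%. At 4 h they were 0.0743%, 0.0031% and 0.0434%, and at 20 h 0.0186%, 0.0186% and 0.0434%. For the difference of responses the shares were 0.0031% (4 h) and 0.0031% (20 h) for Cd5-/-, 0% (4 h) and 0.0031% (20 h) for Cd6-/-, and 0% at both times for double knockout cells. At 4 h, 4 members in Cd6-/- cells had an unadjusted p under 0.05 by either tool (2.74% of all genes by edgeR and 2.03% by DESeq2). Double knockout cells had 7 by edgeR (2.76%) and 3 by DESeq2 (2.23%), and Cd5-/- cells had 1 by either tool (3.39% and 2.58%). At 20 h either tool gave 1 for Cd5-/- (2.24% and 1.87%), 0 for Cd6-/- (1.68% and 1.13%) and 1 for double knockout cells (2.3% and 2.03%).

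Socs3 at 4 h came closest in Cd6-/- cells. Its libraries had 9.6, 32.7 and 26.4 CPM in WT, 6.33, 22.5 and 16.8 CPM in Cd5-/-, 19, 70.6 and 72.3 CPM in Cd6-/- and 16.3, 62.3 and 52.3 CPM in double knockout cells. Library 1 was the lowest in all 4 genotypes, and this also held for Socs1, Pim2, Stat3 and Stat4 at 4 h. The groups overlapped, but each numbered Cd6-/- library was above the WT library of its number. The log2 fold change by edgeR was 1.23 ± 0.32 SE (adjusted p = 0.38) in Cd6-/- cells and 0.93 ± 0.32 SE (adjusted p = 1) in double knockout cells. With the replicate number as a block the value in Cd6-/- cells was called (log2 1.21, adjusted p = 0.023), as it was without libraries 1, 2 or 3 (adjusted p = 5.9e-05, 6.9e-05 and 6.5e-10) and without the 0 h libraries 2 of the single knockouts (0.0014). The 3 fits without a replicate number took no spread from single genes, and the residual deviance of Socs3 per degree of freedom was 1.29, 5.46 and 19.2 in them. It was not called in the read-filtered fit (log2 1.23 ± 0.47 SE, adjusted p = 1), in that fit with the block (0.57), or in that fit without libraries 1, 2 or 3 (0.4, 1 and 1).

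Stat4 at 4 h had 24, 39.3 and 35 CPM in WT, 25, 33.8 and 28.6 CPM in Cd5-/-, 39.7, 56.8 and 59.6 CPM in Cd6-/- and 37.3, 58 and 48.5 CPM in double knockout cells. The Cd6-/- libraries all lay above the WT libraries, with 39.7 CPM next to 39.3 CPM, and the difference stayed under 2-fold (log2 0.67 ± 0.17 SE, adjusted p = 0.38). Double knockout cells gave 0.55 ± 0.17 SE (adjusted p = 0.78). Cish at 4 h had 93.8, 175 and 167 CPM in Cd6-/- cells beside 73.8, 122 and 85.5 CPM in WT cells, with a log2 value of 0.63 (adjusted p = 1). Regulatory T cell markers at 4 h summed to 23.4 to 35.3 CPM in WT and 22.8 to 50.1 CPM in Cd5-/- libraries. They had 34.6 to 60.2 CPM in Cd6-/- and 41.5 to 66.4 CPM in double knockout libraries. Myeloid sums were 11.5 to 19.2 CPM in WT, 10.7 to 32.3 CPM in Cd6-/- and 9.08 to 33.2 CPM in double knockout libraries. The part of these markers in the values of Socs3, Stat4 and Cish was not tested.

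Socs2 at 20 h had its lowest values in the genotypes that lack CD5, without a call. It had 17.5, 10.3 and 10.4 CPM in WT, 17.7, 9.91 and 8.66 CPM in Cd6-/-, 7.95, 6.74 and 5.38 CPM in Cd5-/- and 7.05, 5.41 and 4.9 CPM in double knockout cells. Neither Cd5-/- nor double knockout libraries overlapped the WT libraries, but the differences were not called (log2 -0.94 ± 0.35 SE, adjusted p = 1, and -1.14 ± 0.35 SE, adjusted p = 0.92). The double knockout value was called without libraries 3 (log2 -1.16, adjusted p = 0.019), and the Cd5-/- value of Socs2 at 4 h without libraries 2 (log2 -2.3, adjusted p = 0.0025). Both of these fits took no spread from single genes, and neither value was called in the read-filtered fit without the same libraries (adjusted p = 1 for each). At 20 h the gamma delta T cell marker Trdc had 3.69 to 4.85 CPM in WT, 8.49 to 9.37 CPM in Cd5-/-, 9.04 to 14.3 CPM in double knockout and 3.15 to 5.3 CPM in Cd6-/- libraries. The regulatory T cell markers summed to 8.6 to 23.3 CPM in WT and 8.53 to 19.5 CPM in Cd6-/- libraries. Their sums were 4.32 to 10.6 CPM in Cd5-/- and 5.89 to 10.2 CPM in double knockout libraries. The part of either in the result was not tested.

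**Figure D4:**
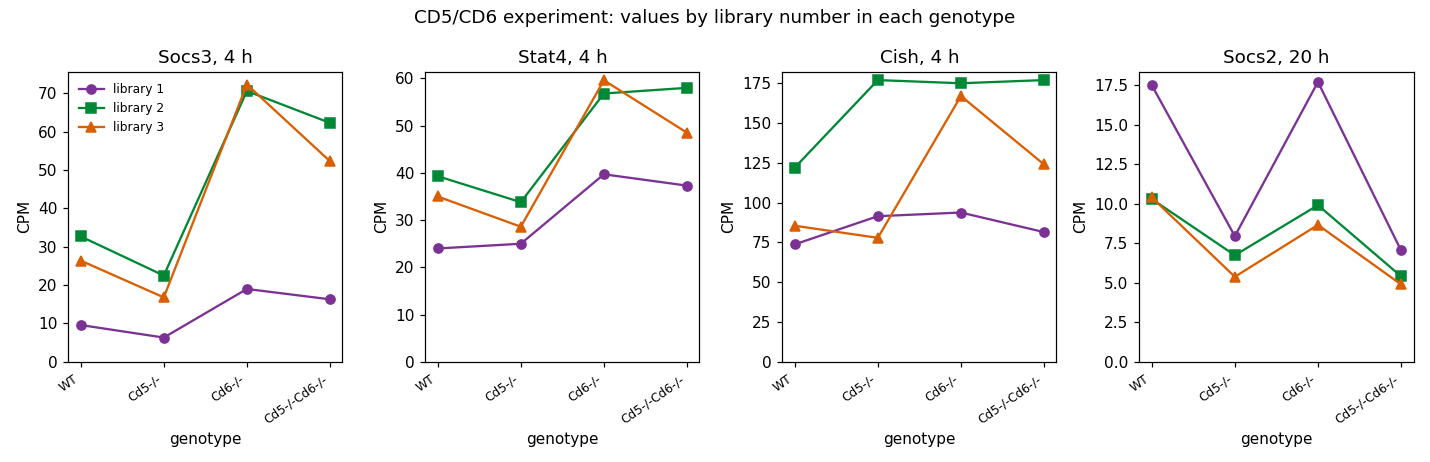
Level (CPM) of Socs3, Stat4 and Cish at 4 h and of Socs2 at 20 h in the 4 genotypes of the CD5/CD6 experiment, with lines joining libraries of the same number. Library 1 is lowest for Socs3 (6.33 to 19 CPM) and Stat4 (24 to 39.7 CPM) at 4 h in every genotype and highest for Socs2 at 20 h.

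The rest of the pathway was read from 7 lists, with every adjusted p from the fit of all genes. Their counts in Lat-/- against WT cells stand beside 5.51% of all genes called higher and 6.23% lower at 4 h, and 12.1% and 12.3% at 20 h. Those of the WT responses stand beside 8.05% to 8.24% of all genes that rose and 9.29% to 11.1% that fell at 4 h, and 10.8% to 12.3% and 12.7% to 17.3% at 20 h. Genes with few reads are included in these shares. Of 10 genes known to be regulated by STAT5, 6 rose and 1 fell at 4 h and 6 rose and 2 fell at 20 h in WT cells of both experiments. In Lat-/- against WT cells, 0 were higher and 8 lower at 4 h, with a median log2 value of -1.71, and 1 was higher and 7 lower at 20 h, with a median of -2.89, where the median of all genes was 0. At 0 h, 0 were higher and 2 were already lower in Lat-/- cells, where 0.961% of all genes were called in either direction. The 2 were Lif and Foxp3, which is also a regulatory T cell marker. Foxp3 was among the genes called lower at 4 h as well, and the part of regulatory T cells in these counts was not tested. The members of this list include inhibitors and cytokines as well as survival genes. Cdkn1a, an inhibitor of the cell cycle, went from 0.232 to 99.6 CPM on average by 4 h in WT cells and to 10.1 CPM in Lat-/- cells (log2 -3.3 ± 0.2 SE between them, adjusted p = 3.6e-61). Lif, a cytokine of the IL-6 family, was lower in Lat-/- cells at 20 h (log2 -5.43, adjusted p = 1.2e-75) and already at 0 h (log2 -1.85, adjusted p = 4.9e-05). Bcl6, a repressor that STAT5 is known to keep low, was lower in Lat-/- cells at 4 h (-1.27) and higher at 20 h (2.88, adjusted p = 1e-62). Bcl2, a survival gene, was lower at 4 h (-1.51) and had a value of -0.59 at 20 h.

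Among ligands, of 8 cytokines with reads in the LAT experiment, 1 was higher and 2 lower in Lat-/- cells at 4 h, and 2 were higher and 2 lower at 20 h. At 0 h, 0 were higher and 2 were already lower. These were Il2 (log2 -3.28, adjusted p = 0.029), at 0.201 and 0.0155 CPM on average in WT and Lat-/- cells, and Il21 (log2 -2.65, adjusted p = 9.1e-05), at 1.24 and 0.191 CPM. Il2, the main STAT5-activating cytokine of activated CD4+ T cells, averaged 29.1 CPM at 4 h and 71.9 CPM at 20 h in WT cells and 0.883 and 3.03 CPM in Lat-/- cells (log2 -5.05 and -4.57, adjusted p = 1.6e-86 and 4.4e-91). Il4 was higher in Lat-/- cells at 20 h (log2 2.37, adjusted p = 0.0015), but at low levels of 0.0856 to 0.258 CPM in WT and 0.742 to 0.86 CPM in Lat-/- libraries. Il21 was not called at 4 h or 20 h (-0.87 and 0.39).

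Of 5 receptor chains of the gamma chain family, 1 was higher and 2 were lower in Lat-/- cells at 4 h, and 1 higher and 1 lower at 20 h. Il7r, the IL-7 receptor chain of resting T cells, fell from 576 ± 27.6 to 23.3 ± 11.5 CPM (SD, n = 3) by 20 h in WT cells and stood at 2057 ± 333 CPM in Lat-/- cells (log2 6.47 between them, adjusted p = 3.7e-262). Il2rb, the signaling chain shared by the IL-2 and IL-15 receptors, had 538 to 594 CPM in WT and 39.6 to 109 CPM in Lat-/- libraries at 20 h (log2 -3.04, adjusted p = 4.1e-78). Il21r was lower in Lat-/- cells at 4 h (log2 -1.02) and had a value of -0.22 at 20 h.

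Of 6 receptor chains that signal to STAT3 or STAT4, 1 was higher and 1 lower at 4 h in Lat-/- cells, and 3 were higher and 2 lower at 20 h. Il6ra, the IL-6 receptor chain, was higher at 20 h (log2 4.13 ± 0.17 SE, adjusted p = 3.4e-131), and so was Il10ra (1.85). Both IL-12 receptor chains, Il12rb1 and Il12rb2, were lower (log2 -3.71 and -2.2), and Il12rb1 averaged 18.5 CPM in WT and 1.41 CPM in Lat-/- cells. Il12rb2 was low in both, at 1.29 to 2.05 CPM in WT and 0.0742 to 0.547 CPM in Lat-/- libraries. Its value at 4 h was 1.04 and not called (adjusted p = 0.1). Stat4, the transducer of both chains, was higher in the same 20 h libraries.

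Of the 4 Janus kinases, 0 were higher and 1 lower in Lat-/- cells at 4 h, and 1 was higher and 1 lower at 20 h. Jak1 was higher at 20 h (log2 1.95, adjusted p = 2.8e-37), and Tyk2, which fell at 4 h in WT cells (-1.12), had values of 0.54 and 0.03. Of 8 other SOCS, PIM and STAT genes, 2 were higher and 1 lower at each of 4 h and 20 h. The third PIM kinase gene, Pim3, was lower at both times (log2 -2.3 and -1.27), Stat2, of the interferon pathway, was higher at both (1.9 and 2.82), and Socs5 was called at neither (-0.6 and 0.33). Of 10 other inhibitors, among them phosphatases and PIAS proteins, 0 were higher and 2 lower at 4 h, and 2 were higher and 1 lower at 20 h. Sh2b3, the adaptor that restrains JAK2, was lower at 4 h (log2 -1.81, adjusted p = 6.5e-29), and Pias3, the inhibitor of STAT3, had values of 0.9 and 0.55. No gene of the 7 lists was called in any knockout against WT comparison of the CD5/CD6 experiment by edgeR.

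The course of each member over conditions was set beside that of 10085 other genes, as Pearson's r of mean log2 CPM over the 12 and the 6 conditions, with no test. Points share libraries, depth and the same stimulation, and many other genes moved with it. The gene most like Pim2 was Dna2 (r = 0.993 and 0.989), that most like Pim1 was Tbc1d30 (0.992 and 0.988), and that most like Socs1 was Wsb2 (0.984 and 0.998). Cish was most like Cars (0.961 and 0.979), Socs2 most like Usp5 (0.963 and 0.96) and Socs3 most like Gm32633 (0.975 and 0.97). Among the STAT genes, Stat5b was most like Ugcg (0.98 and 0.983), Stat5a most like Prkca (0.962 and 0.958), Stat3 most like Parp12 (0.96 and 0.959) and Stat4 most like Ubald2 (0.931 and 0.943).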

How the data were processed

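Raw read counts per gene were deposited by the authors as a single table for each experiment, without normalization and without pooling of libraries. They sequenced stranded mRNA libraries as single 50-base reads (bcl2fastq 2.17.1.14 per the labels), mapped the reads to GRCm38 with STAR and counted them with featureCounts. The annotation release and the use of strand in counting are not given in the sources used here, so reads of overlapping genes (Pim1 and antisense Gm26885, Stat4 and Gm28177, the ends of Stat3 and Stat5a) and of shared sequence could be assigned in more than 1 way. All columns were assigned to samples, and 0 were left unused. The 2 tables were normalized and fitted separately, so levels are compared within a table only.

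The counts were fitted with edgeR 4.0.16 under R 4.3.3 (with limma 3.58.1; tables read by data.table, version 1.17.8). The fit took every gene that had 1 read or more over all samples. TMM factors (0.876 to 1.17) scaled the libraries, and each genotype and time had a coefficient in 1 quasi-likelihood fit per experiment, with Benjamini-Hochberg adjustment over all genes. Gene IDs were named from the GENCODE annotation of GRCm38 (55144 of 55385 matched). The alternatives were DESeq2 1.42.0, RLE factors, library totals, filterByExpr (16143 and 13928 genes kept, the read-filtered fit), the compared groups alone, the replicate block, adjusted p alone, and fits without each replicate number or without the 0 h libraries 2 of the single knockouts. Combinations with filterByExpr and counts at an unadjusted p were added after seeing the data. No 2 libraries of a group were identical. The procedures were tested on simulated counts.

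The 10 members, the 7 lists and the marker lists were chosen with earlier results of these data known. Of the B cell markers, 1 is not reported here, and the sums hold the other 5. All 10 members are named. From each list up to 2 genes per direction are named, those with the largest fold change among genes called in the same direction in WT cells of both experiments at 4 h or 20 h, and for each member the 1 gene with the highest smaller r over both tables (a mean of at least 50 counts). Same-numbered libraries deviated together (r over 0.1 in every pair) in 6 of 12 responses and 7 of 9 knockout comparisons of the CD5/CD6 experiment, and in 0 of 6 and 1 of 3 in the LAT experiment. The labels do not say what a number marks.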

Additional observations from a re-analysis of the deposited data

Results flagged for a closer look

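Of the 20 differences between the response of Lat-/- cells and that of WT cells, 11 passed the thresholds by edgeR's interaction test, which is why they are listed. The same test called 8.71% of all genes at 4 h and 19.5% at 20 h, genes with few reads included. Values are on the log2 scale, as the Lat-/- response minus the WT response. At 20 h the difference was -4.77 for Socs2 (SE 0.49, adjusted p = 6.1e-21, and -5.73 without libraries 3), -4.74 for Cish (SE 0.24, adjusted p = 1.1e-86), -2.03 for Pim2 (SE 0.21, adjusted p = 8.6e-20) and -1.58 for Stat5a (SE 0.21, adjusted p = 3.4e-12). It was positive for Stat4 (1.72, adjusted p = 9.3e-14) and Stat5b (1.15, adjusted p = 3.6e-07).

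At 4 h the difference was 1.75 for Pim2 (adjusted p = 4.9e-14), 1.45 for Socs3 (adjusted p = 5.9e-10), 1.06 for Stat5b (adjusted p = 9.3e-06) and 1.02 for Stat4 (adjusted p = 5.2e-05), and it was -1.06 for Cish (adjusted p = 3.1e-05). All 11 were called in the read-filtered fit as well, with adjusted p from 1.1e-09 to 0.0059. At 4 h the values of Cish, Stat4 and Stat5b lie near the 2-fold threshold: Cish had -0.98 without libraries 2 and -0.9 with library totals, Stat4 had 0.99 and 0.86 without libraries 1 and 2, and Stat5b had 0.94 without libraries 1, none of them called. Pim2 was positive at 4 h and negative at 20 h, and no cause was tested for any of these values.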

How the results depend on the processing

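Read counts of Socs2 limit its values, with 3 to 40 reads per Lat-/- library. The fit of all genes in the LAT experiment took no spread from single genes, so its p-values are smaller than those of the read-filtered fit. Library totals in place of TMM shifted the median of all genes by up to 0.25 (log2) and member levels to 0.893 to 1.13 times. Of the counts of members called under the alternatives, 557 were within 1.5 times of the value reported and 47 were not. Of the fold changes, 24 changed sign, none of them called.

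With adjusted p alone, the counts were 8 (20 h, WT), 6 (20 h, Lat-/-) and 5 (20 h against 4 h, Lat-/-) in the LAT experiment, and in the CD5/CD6 experiment 8 (20 h, WT, Cd5-/-, Cd6-/- and double knockout), 9 (4 h, Cd5-/-) and 7 (20 h against 4 h, WT). The share of all genes that passed adjusted p alone is not given here, so these counts have no background beside them. Library totals gave 2 at 4 h in Lat-/- cells. At 0 h, Lat-/- against WT gave 1 with DESeq2, with the compared groups alone, and in the read-filtered fit with or without the replicate block. Counts at an unadjusted p under 0.05 were 1 (Cd5-/- at 4 h and at 20 h, both tools), 4 (Cd6-/- at 4 h, both tools), 7 by edgeR and 3 by DESeq2 (double knockout at 4 h), and 1 (double knockout at 20 h, both tools), where 1.87% to 3.39% of all genes passed the same threshold.

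The replicate block changed 1 call: in Cd6-/- against WT cells at 4 h the count was 1 in place of 0 (Socs3), as it was without the 0 h libraries 2 of the single knockouts, and 0 in the read-filtered fit with the block. Stat4 in Lat-/- cells at 20 h against 4 h changed sign with the replicate block (log2 0.01). Every number-matched Cd6-/- and WT pair at 4 h deviated together, although the labels do not say what the numbers mark.

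Leaving out 1 replicate number, with all genes or in the read-filtered fit, gave counts from 1 to 4 (Lat-/-, 4 h), 1 to 2 (Lat-/-, 20 h against 4 h), 0 to 1 (Lat-/- against WT, 0 h), 3 to 6 (4 h) and 0 to 5 (difference of responses, 4 h), from 3 to 5 (Cd6-/-, 4 h), and from 0 to 1 for Cd5-/- at 4 h, Cd6-/- at 4 h, the difference of the Cd6-/- response at 4 h, double knockout at 20 h and the difference of its response at 20 h.

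Values that changed sign, all at 0.22 or less: with library totals, Cish in Lat-/- cells at 4 h (-0.04), Pim1 in Lat-/- against WT at 4 h (0.01), Stat4 in Lat-/- at 20 h against 4 h (0.01), Stat3 in WT of the CD5/CD6 experiment at 4 h (-0.17) and Stat5b in WT of the LAT experiment at 4 h (-0.22, and -0.02 with the groups alone). Without 1 replicate number, the ranges were -0.2 to 0.19 (Cish, Lat-/-, 4 h), -0.08 to 0.26 (Pim1, WT, LAT experiment, 20 h), -0.93 to 0.13 (Pim1, double knockout, 20 h), -0.5 to 0.03 (Pim2, WT, CD5/CD6 experiment, 4 h), -0.19 to 0.19 (Socs1, the same, 20 h), -1.61 to 0 (Socs2, Lat-/-, 20 h against 4 h), -0.88 to 0.19 (Socs2, difference at 4 h), -0.06 to 0.84 (Socs3, WT, LAT experiment, 20 h against 4 h), -0.04 to 0.25 (Stat3, Lat-/-, 4 h), -0.15 to 0.18 (Stat3, WT, CD5/CD6 experiment, 4 h), -0.1 to 0.14 (Stat4, Lat-/-, 20 h against 4 h), -0.05 to 0.24 (Stat4, WT, CD5/CD6 experiment, 20 h against 4 h), -0.12 to 0.02 (Stat5b, Lat-/- against WT, 0 h) and -0.13 to 0.13 (Stat5b, WT, LAT experiment, 4 h). The causes were not tested.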
